A study of Homo sapiens with 2 samples.

Results

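Broad peaks of RNA recovered with GATA2 are described here. They are the peaks of 2000 bp or more in the HA-IP list, where length is the number of bases from the first to the last position printed here. They were chosen by that length alone, and 378 of the 2692 peaks met it, 14.0% of the list. K562, an established human leukaemia line, stably carried a GATA2 transgene (whether as a single clone is not stated), and both libraries came from cells given doxycycline (1 µg/mL, 5 hours) and 4-thiouridine (100 µM, 24 hours) and irradiated at 365 nm with 0.3 J/cm2. The titles give 1 HA-IP library, the RNA that came down with the HA tag, and 1 Input library, lysate taken before the washes. The peak list belongs to the HA-IP library, so every value is from 1 library, without a replicate and without input values, and no line lacking the transgene was analysed here.

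GATA2 is a zinc finger transcription factor that maintains blood stem and progenitor cells, and it binds DNA at GATA motifs. In CLIP, light joins a protein to the RNA it touches, RNase trims that RNA, and the recovered fragments are mapped to the genome. A stretch called as 1 long peak is therefore built from many fragments, and long exons, unspliced transcripts and repeated sequence can all give such stretches. LINE-1 elements, the retrotransposons that still copy themselves in the human genome, are near 6 kb when complete. The length, chromosome, neighbours and score of the broad peaks are given below. Gene positions and sequence on hg19 were not used here, so no peak is placed in a gene, an exon or a repeat. All coordinates refer to hg19, the build in the submitters' processing notes, with the first base numbered 1.

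Broad peaks made up 14.0% of the list and 41.0% of the sequence it covered, 1336231 of 3258912 bp. Their median length was 2996.5 bp, with quartiles of 2428.25 and 4127 bp. The 10th and 90th percentiles were 2131.7 and 5652.3 bp. The 3 shortest measured 2003, 2005 and 2006 bp and scored 62.8, 51.57 and 50.25, while the 3 longest of the excluded peaks all measured 1999 bp and scored 56.08, 72.76 and 70.01. The values on either side of the length minimum thus overlap, and the minimum cuts through a continuous range.

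Lengths thinned out steadily with no class standing out near 6 kb. In classes of 500 bp, each without its upper limit, 118 peaks lay from 2000 to 2500 bp and 73 in the next class. From 4500 to 5000 bp there were 22, then 16, 11, 7 and 8 in the following classes. The class centred on 6 kb, 5500 to 6500 bp, held 18 peaks, 4.76% of the broad peaks (95% Wilson interval 3.03% to 7.40%). The equally wide class below it held 38 and the one above it held 13. In steps of 100 bp, no step between 5000 and 7000 bp held more than 4 peaks. Intervals here treat peaks as independent and cover counting error only.

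**Figure D1:**
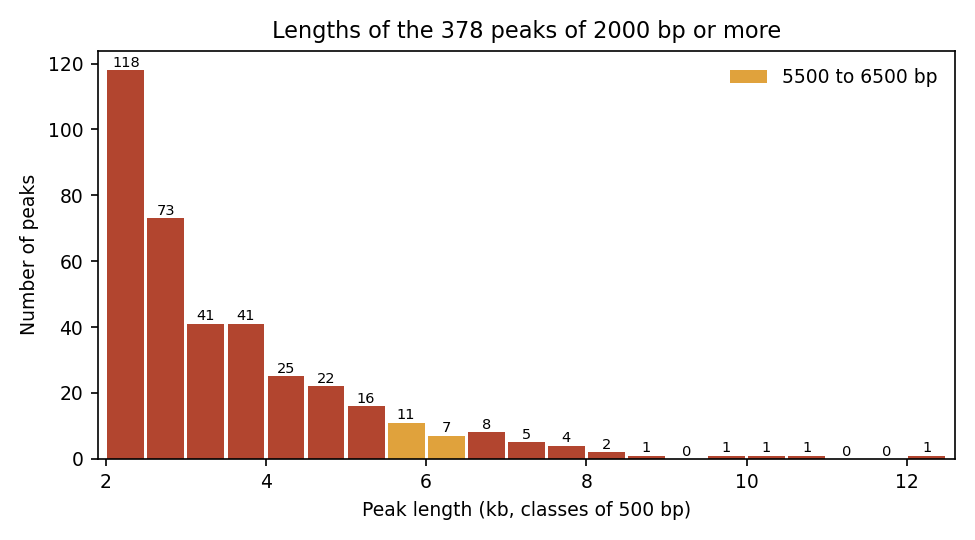
The bars count the 378 broad peaks in classes of 500 bp (x axis, length in kb; y axis, number of peaks), and the lighter bars mark 5500 to 6500 bp. Counts fall from 118 to 11 and 7 in the marked classes, and 8 peaks lie in the class just above them.

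The 18 peaks near 6 kb lay on 14 chromosomes. The highest score among them was 247.72, on chromosome 15 from 40912303 to 40918489, a peak of 6187 bp with no other peak closer than 268185 bp. The next, on chromosome 6 from 12120163 to 12126237, scored 152.1 over 6075 bp. Scores from 102.91 to 116.94 were found at peaks of 5596 bp on chromosome 15 from 34817263, 5810 bp on chromosome 22 from 32107508, 5968 bp on chromosome 12 from 32133720, 5912 bp on chromosome 9 from 135201441 and 6011 bp on chromosome 11 from 10820273. The next 3 in rank, on X from 120702878, chromosome 5 from 34187379 and chromosome 1 from 39796379, scored 87.33, 77.91 and 76.71. The lowest of the 18 scored 60.71, and 5 of the 18 had another peak within 10 kb.

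Identical lengths recurred, but in small numbers. Among the broad peaks 23 lengths occurred more than once, in 48 peaks, and no length occurred more than 3 times. How many equal lengths would arise by coincidence, with lengths crowded near the minimum, was not computed. None of the shared lengths reached 5000 bp, which only 58 broad peaks did, and the longest was 4742 bp. These peaks formed 27 pairs of equal length, of which 4 lay on the same chromosome (14.8%, against 5.72% of all pairs of broad peaks). The nearest such pair lay on chromosome 5, from 69404020 to 69407422 and from 70404373 to 70407775. Both of its peaks measured 3403 bp, they started 1000353 bp apart, and they scored 63.81 and 73.2. The other same-chromosome pairs, on chromosomes 1, 12 and 17, started at least 19064697 bp apart.

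The 20 longest peaks, from 6679 to 12489 bp, lay on 10 chromosomes. Only 3 exceeded 10000 bp. The longest, on chromosome 15 from 31024252 to 31036740, was followed 31861 bp later by a further broad peak of 4455 bp. The second, on chromosome 7 from 119430189 to 119440901, spanned 10713 bp, and no other peak lay within 1169835 bp of it. The third, on chromosome 5 from 288270 to 298423, spanned 10154 bp and was the most isolated broad peak, 5158577 bp from the nearest peak. The next 4 measured 9728, 8643, 8442 and 8036 bp. The remaining 13 lay between 6679 and 7862 bp. Of these 20 peaks, 1 had another peak within 10 kb and the median distance to the nearest peak was 278 kb.

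The score is the authors' value for each peak, on a scale the file does not state. Broad peaks had a median score of 71.1 (quartiles 58.0 and 99.3), and the 2314 shorter peaks had a median of 65.2 (56.1 and 83.8). A score above 100 was reached by 93 broad peaks, 24.6% (20.5% to 29.2%), against 16.0% of all peaks and 14.6% (13.2% to 16.1%) of the shorter ones. A score above 200 was reached by 13 broad peaks, 3.44% (2.02% to 5.79%), against 2.53% of all peaks. At the low end, 63 broad peaks (16.7%) and 480 shorter peaks (20.7%) scored under 55. The shorter peaks were not uniform. The 650 under 500 bp had a median of 70.3, with 18.5% above 100, and the 1664 of 500 to 2000 bp had 63.7 and 13.1%. The 191 broad peaks of 2000 to 3000 bp had 68.6 and 17.8%, close to the peaks under 500 bp. A higher score was thus not particular to broad peaks. By chromosome, broad peaks had the higher median on 15 of 24, and on 11 of the 16 with at least 10 broad peaks. Among those 16 they had the lower median on chromosomes 19 (63.6 against 65.6), 16 (62.1 against 68.3), 17 (63.9 against 65.7) and 8 (62.2 against 64.6). On chromosome 10 both medians were 61.3. The ranges of broad and shorter peaks overlap almost completely, from 50.11 to 735.93 and from 50 to 623.95. Score and length come from the same peak calls in 1 library, so no test of the score differences was made. Whether length enters the score is not stated.

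Median scores were highest between 5000 and 8000 bp. The median score was 68.6 for the 191 peaks of 2000 to 3000 bp, 70.0 for the 82 of 3000 to 4000 bp and 71.2 for the 47 of 4000 to 5000 bp. It was 107 for the 27 peaks of 5000 to 6000 bp and 101 for the 24 of 6000 to 8000 bp. The 7 peaks of 8000 bp or more had a median of 71.5. Over 5000 to 8000 bp, 28 of 51 peaks scored above 100, 54.9% (41.4% to 67.7%), whereas 63 of the 320 peaks of 2000 to 5000 bp did, 19.7% (15.7% to 24.4%). The rise was not centred on 6 kb. The 16 peaks of 5000 to 5500 bp had a median of 122, the 18 near 6 kb had 77.3 and the 17 of 6500 to 8000 bp had 101. The length classes were drawn after the values were seen. Across the 378 broad peaks the rank correlation of length with score was 0.21 and the linear correlation 0.12. Across the 2314 shorter peaks the corresponding values were -0.09 and -0.01. Points of 1 library share its depth, and these are descriptions only.

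**Figure D2:**
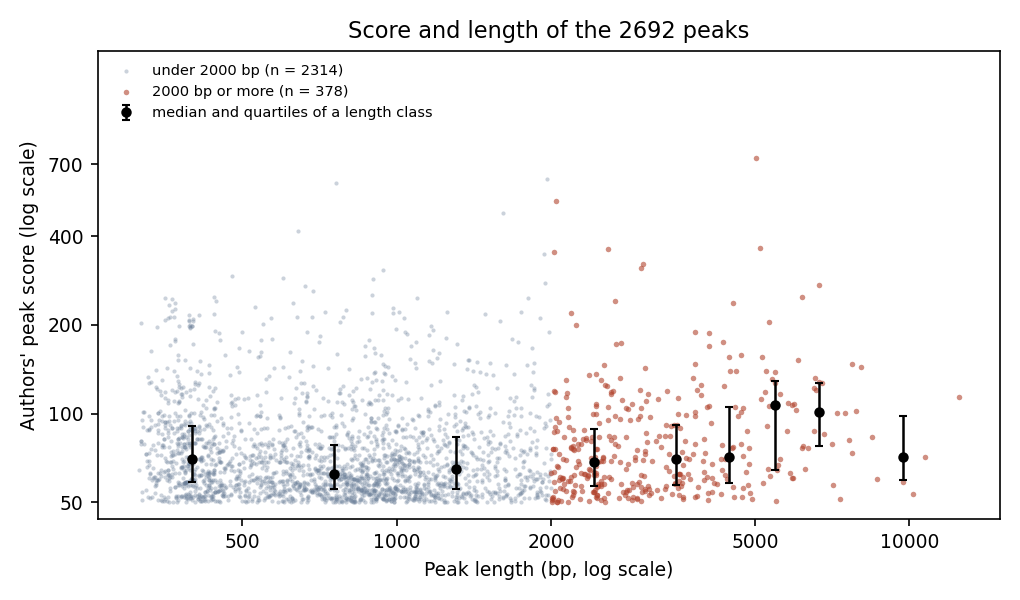
Each point is a peak, with length in bp on the x axis and the authors' score on the y axis, both on log scales. Black points and bars give the median and quartiles of 9 length classes, whose medians stay between 62.6 and 71.2 up to 5000 bp, reach 107 and 101 from 5000 to 8000 bp, and return to 71.5 above that.

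The 10 highest-scoring broad peaks lay on 7 chromosomes and ranked 28 or better in the whole list. Their lengths fell into a lower set of 6 peaks, from 2025 to 3030 bp, and an upper set of 4 peaks, from 5026 to 6679 bp. The upper set was led by the top score of the list, 735.93, on chromosome 3 from 37364629 to 37369654. It also held the peak on chromosome 1 from 197069292 to 197074412 (364.34), a peak on chromosome 2 from 162357514 to 162364192 (273.83), and the chromosome 15 peak near 6 kb described above. The lower set was led by a peak of 2045 bp on chromosome 20 from 26188468 to 26190512, which scored 524.93 and had no other peak within 2617609 bp.

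The rest of the lower set lay on chromosomes 2, 5 and 11. Chromosome 11 gave 2 peaks, from 10529177 to 10531762 (362.89) and from 27909607 to 27912636 (322.11), and chromosome 5 gave a peak from 79945202 to 79947870 (241.09). Chromosome 2 gave a pair only 22570 bp apart, from 133011654 to 133013678 and from 133036249 to 133039241, with scores of 354.66 and 311.26. No peak of the 10 had another peak within 10 kb. Of the 50 highest-scoring peaks of the list 12 were broad (24.0%), of the top 100 it was 17 (17.0%), and of the top 500 it was 105 (21.0%), against 14.0% overall.

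All 24 chromosomes of the list carried a broad peak, but their share of a chromosome's peaks ranged from 4.88% to 26.7%. Chromosome 19 had the highest share, 23 of 86 peaks (95% Wilson interval 18.5% to 36.9%), followed by chromosome 16 with 30 of 145, 20.7% (14.9% to 28.0%). Chromosomes 7 and 15 followed with 18.9% and 18.5%. Together chromosomes 7, 15, 16 and 19 held 28.6% of the broad peaks and 19.5% of all peaks. At the other end, chromosomes 13 and 14 had 4.88% each, chromosome 18 had 5.56% and X had 7 of 119, 5.88% (2.88% to 11.6%). The intervals of 2 chromosomes, 16 and 19, lay above the overall 14.0%, and those of 2 others, 14 and X, lay below it. These intervals were not adjusted for the 24 chromosomes compared.

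Chromosomes 17 and 19, both known as gene-rich, had shares of 11.3% (7.06% to 17.5%) and 26.7%, and their intervals do not overlap. Among the higher scoring 1346 peaks the shares were 11.3% (5.82% to 20.7%) and 20.5% (8 of 39, 10.8% to 35.5%), against 16.2% of all such peaks, and the intervals overlap. Their broad peaks had similar median scores, 63.9 and 63.6. Per Mb between the first and last peak of the chromosome, chromosome 19 held 0.390 broad peaks, chromosome 16 held 0.340 and chromosome 15 held 0.330, against 0.202 on chromosome 17 and 0.0209 on chromosome 13. The gene-poor chromosomes 4, 8, 13 and 18 together had 31 broad peaks among 297, 10.4% (7.45% to 14.4%), but chromosome 8 had 14.8%, chromosome 4 had 9.82%, and chromosomes 13 and 18 had the low shares given above.

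**Figure D3:**
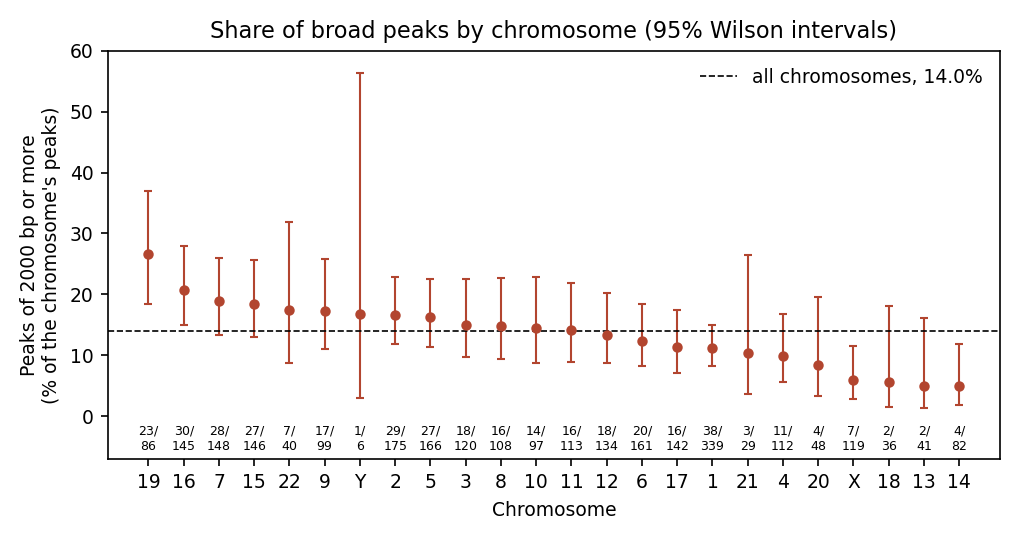
Points give the broad peaks as a percentage of each chromosome's peaks, ordered from highest to lowest, with 95% Wilson intervals and the counts below. The dashed line is the 14.0% of the whole list, which lies below the intervals of chromosomes 19 and 16 and above those of X and 14.

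The broad peaks of chromosome 19 were of moderate length and mostly of low score. They measured 2210 to 6261 bp, with a median of 3214 bp, and 2 of the 23 scored above 100, namely 130.08 and 105.14. Of the 23, 10 lay in 1-Mb windows with 3 or 4 broad peaks and 7 were the sole broad peak of their window. A window from 9270703 to 9722574 held 4 peaks, all of them broad, and another from 53085453 to 53573772 held 3 peaks, again all broad. At the start of the chromosome 3 broad peaks lay between 194417 and 221611, separated by 5846 and 10737 bp, with scores of 61.9, 61.05 and 57.12.

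Chromosome 15 differed from chromosome 19 in score. Of its 27 broad peaks 13 scored above 100 (48.1%), whereas 80 of the 351 on the other chromosomes did (22.8%). The chromosome was singled out after its scores were seen. Elsewhere the counts ranged widely, with 11 of 29 on chromosome 2 and 3 of 7 on X, but 5 of 30 on chromosome 16 and 2 of 23 on chromosome 19. The broad peaks of chromosome 15 included the longest of the list and 2 that almost touched a shorter peak. A peak of 5469 bp from 20693015 to 20698483 followed a peak of 1847 bp after a gap of 86 bp, with scores of 138.19 and 138.29. A peak of 5148 bp from 23360353 to 23365500 followed a peak of 1877 bp after a gap of 14 bp, with scores of 111.75 and 59.85. The layout was alike at both places, a peak of under 2000 bp just before a peak of over 5000 bp, and joined across the gap they would span 7402 and 7039 bp. These places were singled out after their values were seen.

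In fixed windows of 1 Mb, broad peaks were mostly alone. Of the 292 windows with a broad peak, 230 held 1, 42 held 2, 16 held 3 and 4 held 4, and no window held more. Besides the chromosome 19 window given above, those with 4 were found on chromosome 5 (broad peaks from 70070831 to 70807670), chromosome 7 (64166702 to 64865741) and chromosome 16 (21413307 to 21903326). The windows with more than 8 peaks of any length, 23 in number, held 42 broad peaks among 290, 14.5%, close to the 14.0% outside them. Their shares varied. The window on chromosome 5 had 4 broad peaks among 12 (33.3%), a window on chromosome 1 from 228282817 to 228823668 had 1 among 20, and a window on chromosome 1 from 148007124 to 148347256 had 0 among 18.

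Broad peaks and shorter peaks had similar shares of close neighbours, while broad peaks had the shorter median distance. Distance was measured from edge to edge, so for given midpoints a longer peak lies closer to its neighbours. Length is therefore not removed from this comparison, above all at short distances. The median distance to the nearest peak was 80.9 kb (quartiles 13.1 and 294 kb) for broad peaks and 127 kb (17.0 and 512 kb) for shorter ones. Within 10 kb, 82 broad peaks had another peak, 21.7% (17.8% to 26.1%), against 20.2% of all peaks and 20.0% (18.4% to 21.6%) of the shorter ones, with overlapping intervals. That order turned with a length minimum of 3000 bp (18.7% against 20.3%) and among the higher scoring 1346 peaks (16.1% against 17.8%). In the latter setting lower scoring neighbours were dropped as well. Within 100 kb the shares were 53.7% (48.7% to 58.7%) and 46.2% (44.1% to 48.2%). Within 1000 bp they were 7.14% (4.96% to 10.2%) and 4.97% (4.16% to 5.93%), with overlapping intervals.

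**Figure D4:**
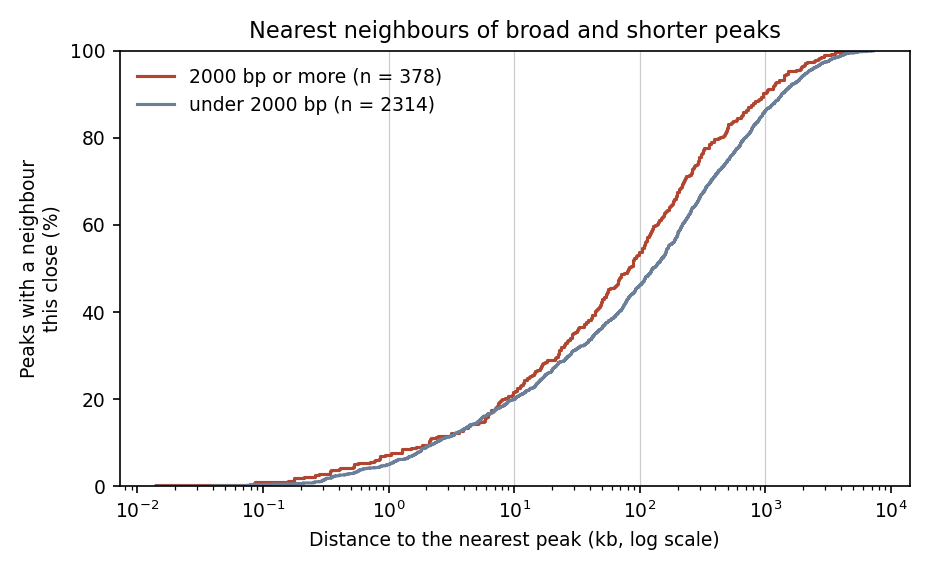
The lines give the percentage of broad and of shorter peaks whose nearest peak lies within the distance on the x axis (kb, log scale). They run together up to 10 kb, at 21.7% and 20.0%, and separate above it, to 53.7% and 46.2% at 100 kb.

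The single nearest peak of each broad and each shorter peak was compared by whether it was broad itself. Other peaks within the distance were not counted. Of the 82 broad peaks with a neighbour within 10 kb, 26 had a broad peak as the nearest, 31.7% (22.6% to 42.4%). Of the 462 shorter peaks with such a neighbour, 55 had a broad peak as the nearest, 11.9% (9.26% to 15.2%). For nearest peaks within 100 kb the shares were 27.1% (21.4% to 33.6%) and 15.1% (13.1% to 17.3%). Mutual neighbours count from both sides, so these shares rest on fewer places than peaks, and the difference was not tested.

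In all, 17 pairs of neighbouring broad peaks lay within 10 kb of each other and took in 33 broad peaks, and 3 of the pairs had shorter peaks in between. The closest, on chromosome 1, consisted of peaks of 4563 and 3789 bp from 214813257 to 214817819 and from 214817905 to 214821693. Only 85 bp separated them, their scores were 105.74 and 131.97, and together they would span 8437 bp. Gaps of 177, 259, 340 and 860 bp separated the next pairs, on chromosomes 12, 15, 16 and 17. The pair on chromosome 16, from 21898680 to 21900915 and from 21901256 to 21903326, scored 199.9 and 93.89. The peaks of the other 3 scored 106.08 and 86.75, 69.52 and 51.64, and 73.13 and 60.19.

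Gaps between 1041 and 2137 bp separated 6 pairs, on chromosomes 3, 4, 2, 11, 9 and 16. In the pair on chromosome 3 a peak of 5268 bp from 121412405 to 121417672 with a score of 90.67 followed a peak of 2255 bp with a score of 69.28. In the pair on chromosome 11 a peak of 6011 bp from 10820273 to 10826283 with a score of 102.91 preceded a peak of 2365 bp with a score of 62.04. Next came gaps of 3887 bp on chromosome 10 (pair from 64966030) and 5846 bp on chromosome 19 (given above). Gaps of 5910 and 7515 bp on chromosome 16 (pairs from 21886852 and 18868731) came after these. The widest gap, 9825 bp on chromosome 7, lay between a peak of 4067 bp from 64436420 to 64440486 with a score of 188.18 and a peak of 9728 bp with a score of 58.64. Over the 17 pairs the longer peak had the higher score in 9 and the lower score in 8.

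**Figure D5:**
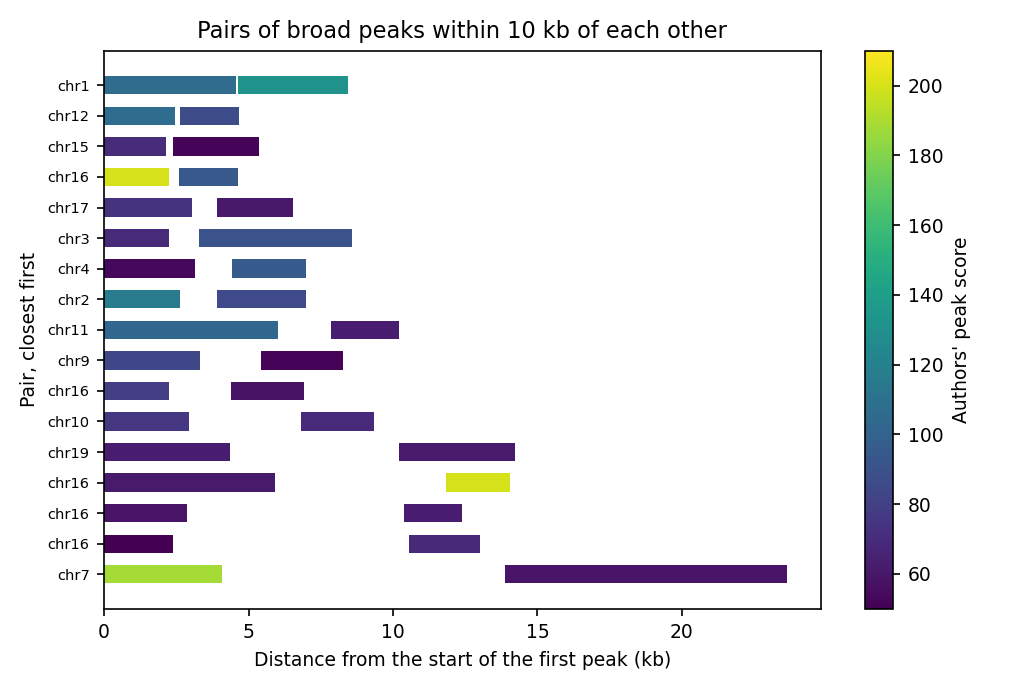
Each row is 1 of the 17 pairs of broad peaks within 10 kb of each other, closest first, drawn to scale from the start of its first peak (x axis, kb) and coloured by the authors' score. The gaps range from 85 to 9825 bp, and shorter peaks between the pairs are not drawn.

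Broad peaks with a close neighbour had a higher median score than isolated ones. The 82 broad peaks with another peak within 10 kb had a median score of 76.0 (quartiles 60.7 and 108), and 27 of them (32.9%) scored above 100. The 37 with no other peak within 1 Mb had a median of 63.6 (55.1 and 84.0), and 6 of them (16.2%) scored above 100. Between these classes the fall was not steady. The 121 broad peaks at 10 to 100 kb had a median of 70.7, with 20.7% above 100, and the 138 at 100 kb to 1 Mb had 71.5 and 25.4%. Among shorter peaks the medians of the closest and most isolated classes were 69.8 for 462 peaks and 64.8 for 321 peaks. Their shares above 100 were 18.8% and 18.7%, with 9.24% and 14.6% in the classes between. The quartiles of crowded and isolated peaks overlap, and none of these differences was tested.

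The 37 isolated broad peaks lay on 19 chromosomes and made up 9.79% of the broad peaks, whereas 13.9% of the shorter peaks were as isolated. They measured 2005 to 10713 bp, with a median of 3005 bp, close to the 2996.5 bp of all broad peaks. The 6 with scores above 100 were the peaks on chromosomes 20, 1 and 2 already named (524.93, 364.34 and 273.83), a peak of 7747 bp on chromosome 6 from 140504968 to 140512714 (146.82), a peak of 6750 bp on chromosome 7 from 96253781 to 96260530 (126.73) and a peak of 2644 bp on chromosome 15 from 99797852 to 99800495 (119.72). The other 31 scored 91.71 or less. Isolation was thus found among both high and low scores of the broad peaks.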

How the data were processed

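Peaks of the HA-IP library were called by the authors with MACS, per the peak names in the deposited file. The sources used here do not give its version, threshold or control, or how reads with several positions were handled. The submitters' processing notes give the build hg19 and list bedtools, SAMtools, Bowtie2, UMI-tools 1.0.0 and cutadapt without their roles. The deposited score is the authors' value per peak, on an unstated scale. Starts were rewritten to count from 1. The list holds no read counts and no strand, so the depth is unknown.

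Groups came from the titles, with 1 library each, so no test was made. Lengths, edge-to-edge distances, medians and shares were computed with Python 3.11.15, numpy 2.4.6, pandas 2.3.3 and scipy 1.17.1, and matplotlib 3.10.9 drew the figures. The code was tested on 20 simulated lists with known lengths and neighbours. Genes and sequences were not assigned, because the gene table at hand is of another build, so the planned overlap with genes was not run. The peaks named by rule are the 20 longest, the 10 highest scoring and the closest pairs (up to 15). The rule also took those near 6 kb with the highest scores and 3 on either side of the length minimum. The values of some are given as ranges. Other peaks were named after their values were seen. Among them are the widest pair, the nearest pair of equal length, the almost touching peaks of chromosome 15 and an isolated peak there. The members, length classes and rules were chosen with earlier results of these data known. Alternatives were other length minimums, the higher scoring peaks and merged peaks.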

Additional observations from a re-analysis of the deposited data

How the results depend on the processing

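The number of broad peaks was 378. It was 584 with a minimum of 1500 bp, 187 with a minimum of 3000 bp and 218 in the higher scoring 1346 peaks, all by construction, and 381 and 404 after peaks within 100 and 1000 bp were merged. Their median score of 71.1 was 76.4 with a minimum of 3000 bp, from 70.0 to 73.1 with a minimum of 1500 bp, after merging or without chromosome Y, and 93.2 among the higher scoring peaks, by construction, where shorter peaks had 84.9. With the other length minimums and after merging, shorter peaks had the lower median, 65.0 to 65.4. The share with another peak within 10 kb, 21.7%, was 7.14% at 1000 bp and 53.7% at 100 kb by construction. It was 16.1% with the higher scoring peaks, where shorter peaks gave 17.8%, so the order of the groups turned. After merging within 1000 bp it was 17.8%, where shorter peaks gave 15.9%. Both settings take away neighbours, because lower scoring peaks were dropped in the first and peaks within 1000 bp were joined in the second. A lower share thus follows in part from the setting. The share was also lower than that of shorter peaks with a minimum of 3000 bp, 18.7% against 20.3%. The cause of the turned order was not tested. The share near 6 kb, 4.76%, was 11.1% in a class of 5000 to 7000 bp and 2.91% in a class of 5800 to 6200 bp, by construction. The share of broad peaks on chromosome 19, 26.7%, was 14.0% with a minimum of 3000 bp, where chromosome 17 had 6.34% and the whole list 6.95%. It was 20.5% (8 of 39) in the higher scoring part of the list, where the share on all chromosomes was 16.2%. It was 42.2% once neighbours up to 100 kb apart were merged. Merging counts the gaps as length, which raises the share by construction, and the share on all chromosomes was not computed for that setting. The alternatives for chromosome 19, and those for the 5000 to 8000 bp class, whose median score of 102 stayed between 101 and 103, were added after seeing the data. Those for that class kept most of its 51 peaks, so its median could move little. Depth is unknown and there is 1 library, which limits all values above. No paired analysis was possible because HA-IP and Input have 1 library each.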
